A study of Macaca mulatta with 40 samples.

Results

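Rhesus monkey muscles were compared by how much message of the fat cell they carried. The bulk RNA-seq libraries came from the vastus lateralis, a thigh muscle, of 40 animals, 20 fed a control diet (CTR) and 20 kept on long-term calorie restriction (CALRES), and the tissue was taken after death. The animals CTR_2, CTR_8, CALRES_2 and CALRES_3 were left out by the rule that chose the animals. The study excluded 4 samples with degraded RNA, and its text does not name them. The other 36, with 18 of each diet and ages at death of 21.65 to 42 years, were ranked by ADIPOQ, the gene of the hormone adiponectin, in counts scaled to a fixed library total (CPM, 1e6 × the count over all counts of the library). The 12 highest (high-ADIPOQ) and the 12 lowest (low-ADIPOQ) animals were compared across every other gene. Both ends held 5 CTR and 7 CALRES animals. The titles number the animals of each diet, and the libraries of numbers 1 to 10 (library set 1) carry another form of library name in the labels than those of 11 to 20 (library set 2). The high end held 6 animals of set 1 and 6 of set 2, the low end 3 and 9, and both library set and diet were terms of the model that compared the ends. The study worked with both sexes, but the labels do not give the sex of an animal.

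Adipocytes of a muscle sit between its fibres and fascicles. They store triglyceride in a single large droplet coated by perilipin 1, make fatty acids and the glycerol backbone for it, release them again through a chain of lipases under hormonal control, and secrete hormones such as adiponectin and leptin. Adiponectin is made almost only by fat cells, so its message serves as a marker of them, although in bulk tissue more fat cells and more RNA per fat cell cannot be told apart.

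The animals of both ends were chosen by their measured ADIPOQ levels, which are given here without a test. They ran from 4.40 to 33.7 CPM in the high-ADIPOQ animals, with a median of 7.28, and from 0.0492 to 1.33 CPM in the low-ADIPOQ animals, with a median of 0.524. The last animal inside the high end, CTR_9, had 4.40 CPM and the first outside it, CTR_3, had 4.17. At the low end CALRES_13 was the last inside with 1.33 CPM and CALRES_9 the first outside with 1.35, so neither boundary marks a gap. In raw counts ADIPOQ had 666 to 4402 reads in the high-ADIPOQ libraries and 9 to 250 in the low ones, at library totals of 86580429 to 329942965 counts over the 36 animals.

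Some properties of the animals and libraries moved with the ends. The summed level of Y-linked genes was above 10 CPM in 3 of 12 high-ADIPOQ animals, 6 of 12 middle animals and 9 of 12 low-ADIPOQ animals. It was 173 to 333 CPM in the 18 animals above that line and 0.125 to 0.947 CPM in the 18 below it. Males alone carry these genes, and the study reports as many males as females among the samples it kept. Read by this level, 3 animals of the high end and 9 of the low end were male, so the ends were unequal in sex. In CTR_18, the animal ranked 3, the 10 most abundant genes took 83.6% of all counts, against 19.5% to 55.2% in the 12 middle animals and 26.3% to 51.1% at the low end. The mitochondrial mRNA share of the counts was 0.589% to 7.48% at the high end (median 1.36%) and 0.208% to 12.3% at the low end (median 0.666%), and its part in the differences was not tested. Results are also given with Y-linked expression as a covariate and with CTR_18 taken out before the ranking ("without CTR_18"), and any further part of either in the differences was not tested. Age at death did not differ beyond its spread (30.9 ± 6.0 years at the high end and 31.2 ± 4.04 at the low end, SD, n = 12 each, permutation test, two-sided p = 0.880).

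The sequences shown are the 250 bases before the annotated RefSeq start (Mmul_10, 5′ to 3′ on the gene's strand) of ADIPOQ, which ranked the animals, and of PLIN1 and CIDEA, whose levels separated the ends without overlap. The search covered these bases and the first 50 of the gene, on both strands. Capitals mark AGGTCA or its complement TGACCT, the half-site read by many nuclear receptors.
ADIPOQ, chr2:10969479-10969728, minus strand: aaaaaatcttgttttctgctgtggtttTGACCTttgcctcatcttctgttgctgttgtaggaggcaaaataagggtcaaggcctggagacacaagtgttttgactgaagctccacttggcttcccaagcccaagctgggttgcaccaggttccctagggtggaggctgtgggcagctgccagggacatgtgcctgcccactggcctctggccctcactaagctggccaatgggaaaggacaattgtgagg
PLIN1, chr7:68464777-68465026, minus strand: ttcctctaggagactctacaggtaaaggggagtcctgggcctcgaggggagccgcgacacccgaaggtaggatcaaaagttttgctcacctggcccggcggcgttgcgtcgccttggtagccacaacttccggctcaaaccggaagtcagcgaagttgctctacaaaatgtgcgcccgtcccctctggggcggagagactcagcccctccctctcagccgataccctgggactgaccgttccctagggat
CIDEA, chr18:72939590-72939839, plus strand: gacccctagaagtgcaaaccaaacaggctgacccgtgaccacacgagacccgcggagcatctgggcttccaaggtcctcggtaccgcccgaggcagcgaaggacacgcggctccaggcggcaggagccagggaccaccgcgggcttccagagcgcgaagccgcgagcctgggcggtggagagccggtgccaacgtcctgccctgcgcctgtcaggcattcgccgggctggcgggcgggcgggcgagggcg

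ADIPOQ held 1 half-site in this window, and 0 of the 16 promoters matched among the genes called higher held one, against 14.9% of 21107 protein-coding promoters. The direct repeat of that half-site spaced by 1 base (DR1), the element read by PPARG with its partner receptor, was in 0 of those 16 and 0.0284% of all, and the C/EBP palindrome (TTGC followed by GCAA) in 0 of 16 and 0.208%. The half-site alone was searched after the data were seen, and it was in 13 of 138 promoters of the fat cell lists described next (9.42%).

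Across 16951 genes tested with edgeR, 17 were higher in the high-ADIPOQ animals at an adjusted p under 0.05 (0.100% of the genes tested) and 1 was lower (0.00590%). At an unadjusted p under 0.01, the threshold of the study, 127 genes were higher (0.749%) and 57 lower (0.336%). The median log2 fold change of all genes was -0.05. Most of the 17 have known roles in fat cells, from coating the droplet to making its fatty acids and secreting hormones. Within library set 1, with 3 low-ADIPOQ animals, 0 genes passed the adjusted threshold, and within set 2 12 were called higher, 7 of them among the 17, and 0 lower. These are subsets of the animals that gave the 17 calls. The lists of gene roles named from here on were chosen with earlier results of these data known, so counts over them are descriptions. Over 8 lists of fat cell functions, 9 of 124 tested genes were higher and 0 lower (7.26%, against 0.106% of all genes in either direction), while over the lists of other cells and muscle functions 1 of 218 was higher and 0 lower (0.457%).

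**Figure D1:**
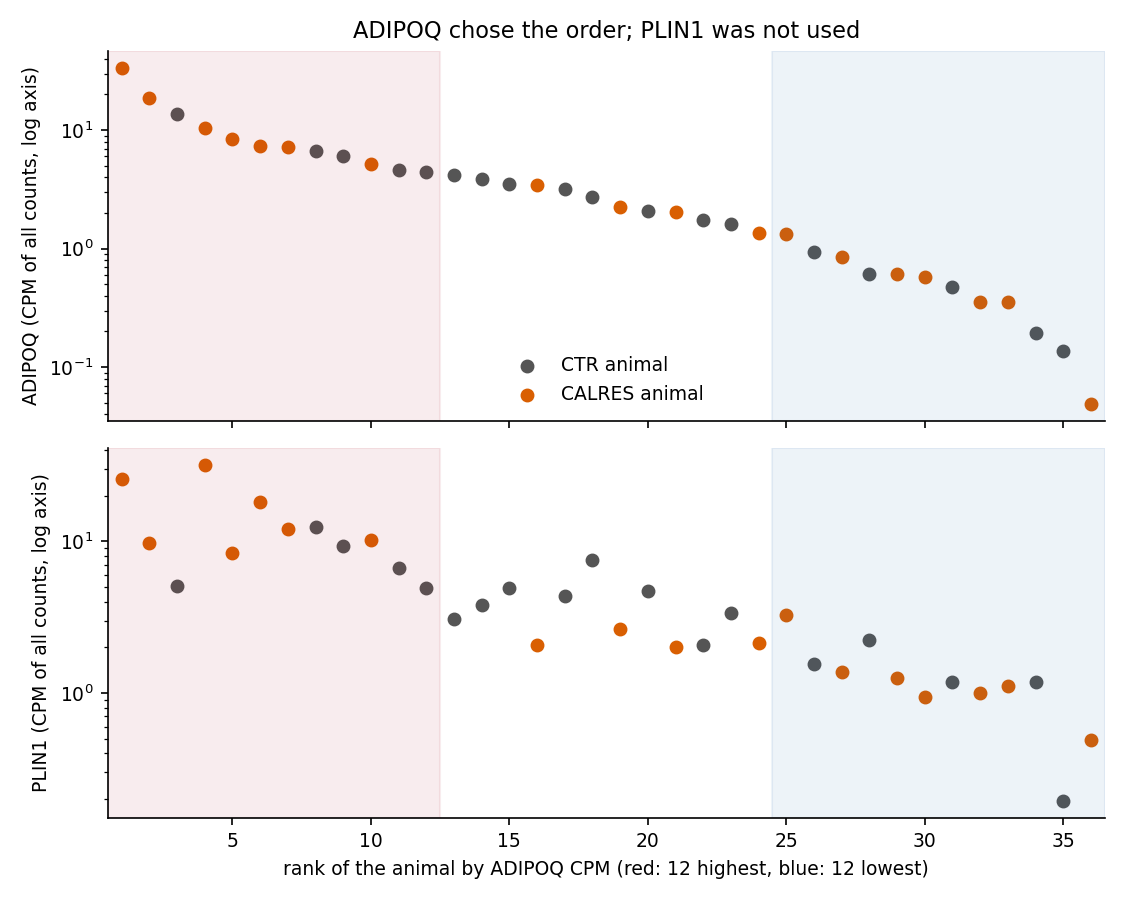
ADIPOQ (upper panel) and PLIN1 (lower panel) in CPM of all counts, on log axes, against the rank of the animal by ADIPOQ, for the 36 ranked animals, 1 point each, grey for CTR and orange for CALRES. ADIPOQ falls by construction; PLIN1, which was not used to rank, lies between 4.95 and 31.9 CPM in the 12 highest animals (red band) and between 0.194 and 3.26 CPM in the 12 lowest (blue band).

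The strongest difference was in the coat of the fat cell's droplet. PLIN1 (ENSMMUG00000017746, chr7:68439285-68464776) encodes perilipin 1, which shields stored triglyceride from lipases. After normalization of the libraries by TMM, the scale of all levels from here on, PLIN1 had 4.10 to 28.3 CPM in the high-ADIPOQ animals (median 10.6) and 0.21 to 3.45 in the low ones (median 1.22). In CTR_18 this scale raised PLIN1 from 5.04 CPM of all counts to 16.2, and every other gene of that library by the same factor. The PLIN1 levels of the ends did not overlap, which held for 2 of all genes tested in this direction (0.0118%), PLIN1 and CIDEA. Its log2 fold change was 3.30 ± 0.383 (SE, adjusted p = 8.87e-05). It was 3.43 ± 0.440 with Y-linked expression added (adjusted p = 0.000769) and 3.13 ± 0.422 without CTR_18 (adjusted p = 0.00142). The label of the muscles as high in adipocyte message thus held for the second marker.

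CIDEC and CIDEA, paired droplet proteins that pass lipid from small droplets to large ones, rose as well. CIDEC (chr2:141235798-141256989) had 0.866 to 11.4 CPM at the high end (median 3.98) and 0.0956 to 1.29 at the low end (median 0.343). Only CTR_9 of the high end lay below the highest low-ADIPOQ animal, CALRES_13. The log2 fold change of CIDEC was 3.72 ± 0.470 (adjusted p = 0.000227). CIDEA (ENSMMUG00000060236, chr18:72939840-72961292) had 0.288 to 3.28 CPM (median 1.06) against 0.0057 to 0.269 (median 0.0843), with no overlap. Its log2 fold change was 3.93 ± 0.583 (adjusted p = 0.00126). CIDEC and CIDEA both kept an adjusted p under 0.05 with Y-linked expression added (0.00161 and 0.00961) and without CTR_18 (0.00506 and 0.00524). The other 9 tested genes of the droplet list did not pass, among them the perilipins that muscle fibres also make: PLIN2 had a log2 fold change of -0.56 ± 0.448 (adjusted p = 0.770), PLIN4 of 0.56 ± 0.419 (0.761) and PLIN5 of -0.78 ± 0.437 (0.742). The droplet list as a whole had a median of -0.02.

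CIDEA also stands on the list of thermogenic (brown and beige) fat, where it was the only 1 of 11 tested genes called. UCP1, the uncoupling protein that defines that fat, was at most 0.143 CPM in any high-ADIPOQ animal and 0.232 in any low one, and did not pass the filter on low counts. EBF2 and PRDM16, transcription factors of that lineage, had log2 fold changes of 1.06 ± 0.573 (adjusted p = 0.742) and 0.55 ± 0.465 (0.783). The PRDM16 value was -0.02 without CTR_18.

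The secreted proteins gave the largest fold changes. LEP (chr3:154708773-154722828) encodes leptin, the hormone that reports fat stores to the brain. It had 0.305 to 32.0 CPM at the high end (median 3.50) and 0.0744 to 1.13 at the low end (median 0.153). The highest value was that of CTR_18, on the TMM scale that raised all levels of this library. Only CALRES_11 of the high end lay under the highest low-ADIPOQ animal. The log2 fold change of LEP was 4.80 ± 0.739 (adjusted p = 0.00172), and 4.50 ± 0.841 with Y-linked expression added (0.0281). Without CTR_18 in the ranking it was 3.78 ± 0.751 and no longer passed (adjusted p = 0.0586). RBP4 (chr9:93753317-93762850), the plasma carrier of retinol, had 1.29 to 21.3 CPM (median 6.24) against 0.0925 to 2.09 (median 0.273). RBP4 rose by a log2 fold change of 4.20 ± 0.624 (adjusted p = 0.00126), with 10 of 12 high-ADIPOQ animals above every low one. It passed with Y-linked expression added (0.00961) and without CTR_18 (0.00874).

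The other 19 tested secreted proteins were not called, and the 21 together had a median of 0.57. CFD, the complement protease adipsin, is abundant in fat, yet it had 9.17 to 326 CPM at the high end (median 41.9) and 8.68 to 82.7 at the low end (median 27.0). The ends overlapped almost wholly, with a log2 fold change of 1.18 ± 0.484 (adjusted p = 0.742). APOE, a lipid carrier that fat cells share with macrophages, had a log2 fold change of 1.18 ± 0.461 (adjusted p = 0.742). The other 4 members found in the files did not pass the filter on low counts and were not tested. Summed over the high-ADIPOQ and the low-ADIPOQ libraries, ANGPTL8 had 1140 and 31 counts and ORM1 5845 and 289. For ITLN1 (204 and 359) and ASIP (106 and 550) the low sum was larger. Such sums can rest on 1 animal. The highest level of a single animal was 2.88 CPM of ITLN1 and 1.86 of ASIP at the low end. At the high end it was 23.3 CPM of ORM1 and 2.31 of ANGPTL8.

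**Figure D2:**
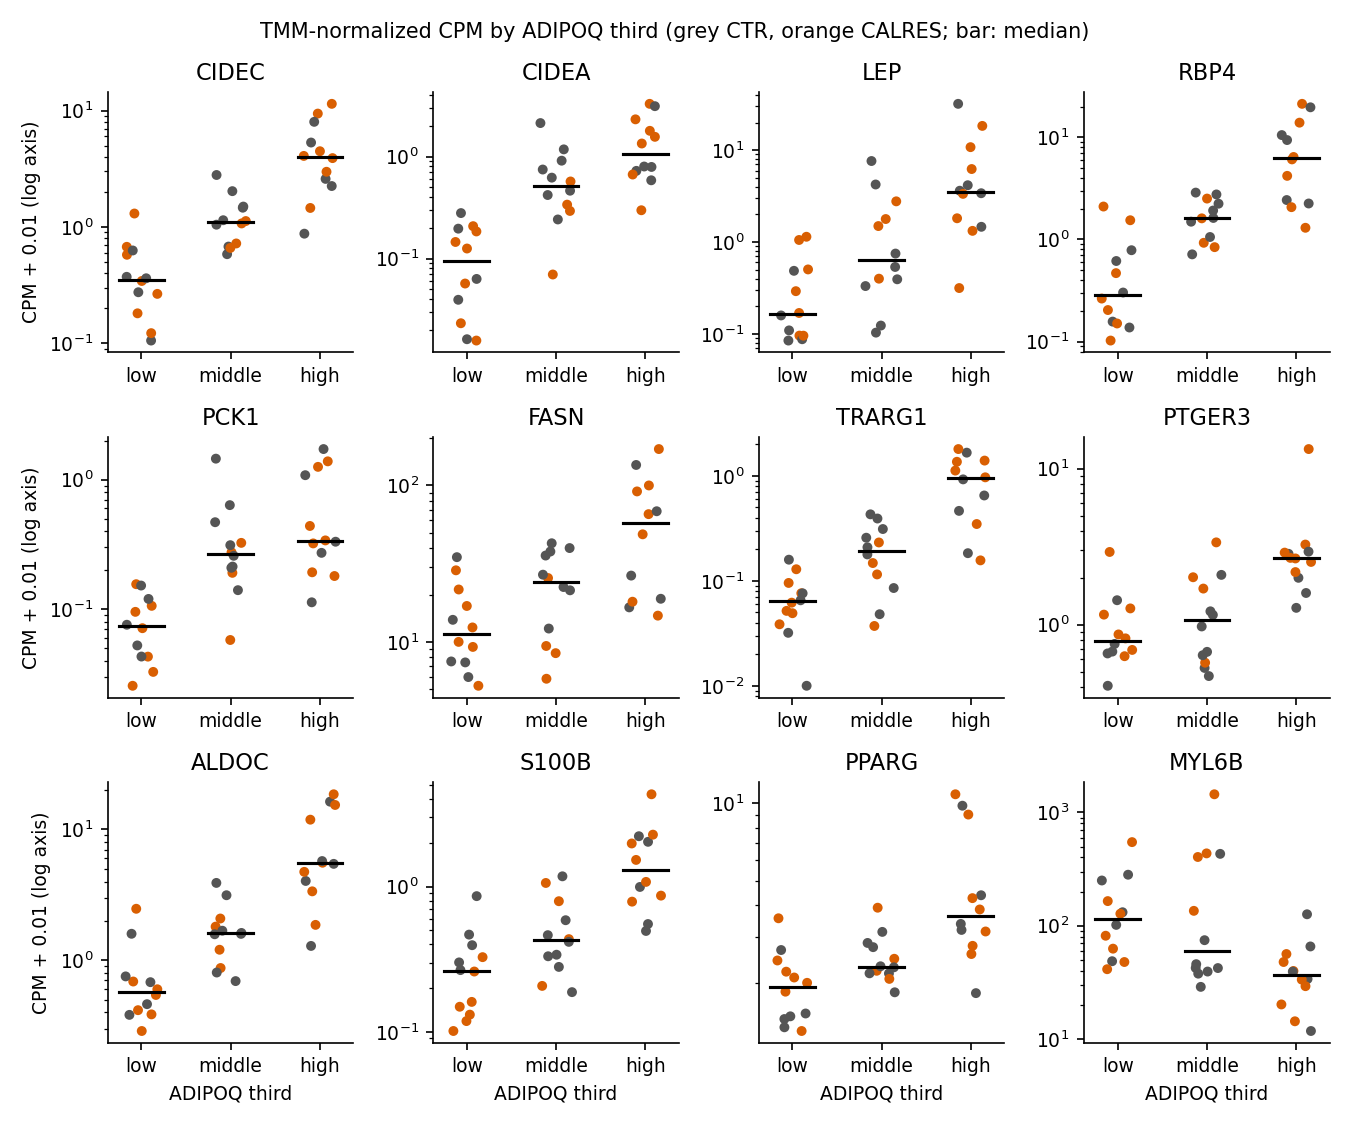
TMM-normalized CPM plus 0.01, on log axes, of 12 genes in the 12 low-ADIPOQ, 12 middle and 12 high-ADIPOQ animals, 1 point per animal (grey CTR, orange CALRES), with bars at the medians. For the genes called higher (PPARG was not called) the middle median lies between the others, and MYL6B has a median of 114 CPM at the low end and 36.47 at the high end.

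In fatty acid synthesis FASN (chr16:78420668-78440909), the synthase that builds palmitate, was called. It had 14.7 to 171 CPM at the high end (median 57.2) and 5.25 to 34.8 at the low end (median 11.2), and 7 of 12 high-ADIPOQ animals exceeded every low one. FASN rose by a log2 fold change of 2.38 ± 0.439 (adjusted p = 0.0158), and by 2.93 ± 0.463 with Y-linked expression added (0.00410). Leaving out CALRES_19 or CALRES_6 ended the call, with an adjusted p up to 0.0730, as did taking out CTR_18 before the ranking (2.36 ± 0.482, adjusted p = 0.0734).

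The 2 enzymes that work on the palmitate next had larger but far more variable differences. SCD, the desaturase that makes oleate, had 3.84 to 901 CPM (median 75.9) against 2.15 to 44.2 (median 4.36), a log2 fold change of 3.99 ± 0.979 that did not pass (adjusted p = 0.264). ELOVL6, which lengthens palmitate, had 0.112 to 25.0 CPM (median 0.599) against 0.0638 to 0.736 (median 0.163) and a log2 fold change of 3.90 ± 0.903 (adjusted p = 0.150). In both genes the same 5 animals, CALRES_7, CTR_7, CALRES_16, CALRES_19 and CALRES_12, were the highest, while CTR_18 and CALRES_11, among the 3 animals richest in ADIPOQ, had 5.10 and 3.84 CPM of SCD. Of the 15 tested genes of this list 6 were higher at an unadjusted p under 0.01 and 0 were lower, beside 0.749% and 0.336% of all genes. A value above 0 was found in 12 of 15 (median 0.64), beside 44.7% of all genes.

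PCK1 (chr10:92734769-92740427), whose enzyme makes the glycerol backbone of triglyceride in fat cells, was the only called gene of 19 tested for fatty acid uptake and triglyceride synthesis. It had 0.103 to 1.71 CPM at the high end (median 0.325) and 0.0156 to 0.146 at the low end (median 0.0636), with 11 of 12 high-ADIPOQ animals above every low one. The log2 fold change of PCK1 was 3.13 ± 0.543 (adjusted p = 0.00789). With Y-linked expression added PCK1 had 2.45 ± 0.630 and was not called (adjusted p = 0.380). FABP4, the fatty acid binding protein used as a fat cell marker, is also made by capillary endothelium and macrophages. It had 24.2 to 112.6 CPM against 6.51 to 57.2 and a log2 fold change of 0.81 ± 0.343 (adjusted p = 0.742). AGPAT2 had a log2 fold change of 0.80 ± 0.296 (0.742), and LPL, the lipase of the capillary wall, of 0.42 ± 0.450 (0.834). The list had a median of 0.11.

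Breakdown of the store gave no call: 0 of 14 tested lipolysis genes passed, and their median was 0.27. LIPE, hormone-sensitive lipase, had 9.96 to 64.9 CPM at the high end (median 27.2) and 3.20 to 33.7 at the low end (median 14.8), a log2 fold change of 1.08 ± 0.331 (adjusted p = 0.742). G0S2, an inhibitor of the first lipase of the chain, had a log2 fold change of 1.95 ± 0.619 (0.742), and PNPLA2, that lipase, of 0.22 ± 0.343 (0.896). PNPLA2 and LIPE are also expressed in muscle fibres.

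Of the genes of insulin and adipocyte signalling 2 of 20 tested were called. TRARG1 (chr16:1137446-1157971), a regulator of the traffic of the glucose transporter GLUT4, had 0.146 to 1.79 CPM at the high end (median 0.935) and 0 to 0.149 at the low end (median 0.0535). TRARG1 had a log2 fold change of 3.81 ± 0.536 (adjusted p = 0.00102), with 4.35 ± 0.585 after Y-linked expression was added (0.00085) and 3.59 ± 0.609 without CTR_18 (0.00874). SLC2A4, which encodes GLUT4 and is abundant in muscle fibres, had a log2 fold change of 0.12 ± 0.344 (adjusted p = 0.947). PTGER3, a prostaglandin E2 receptor that restrains lipolysis, had 1.27 to 13.3 CPM against 0.396 to 2.91 and rose by 1.51 ± 0.30 on the log2 scale (adjusted p = 0.0358). The PTGER3 call was kept in 10 of the 24 fits that left out 1 animal each, and was lost with Y-linked expression added (1.53 ± 0.357, adjusted p = 0.165) and without CTR_18 (1.20 ± 0.339, 0.809).

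The transcription factors of fat cell formation were not called, with 0 of 14 tested past the threshold and a median of 0.31. PPARG, the master regulator of adipogenesis, had 1.81 to 10.8 CPM at the high end (median 3.61) and 1.29 to 3.55 at the low end (median 1.91). All but 1 of the high-ADIPOQ animals lay above the low median, and the log2 fold change was 1.29 ± 0.30 (adjusted p = 0.153). CEBPA, its partner, did not pass the filter on low counts, with 129 counts summed over the high-ADIPOQ libraries and 159 over the low ones.

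Among the called genes on no list of fat cell functions, ALDOC (chr16:24196623-24200774), the aldolase of brain that is also found in fat, had 1.28 to 18.6 CPM at the high end (median 5.51) and 0.277 to 2.46 at the low end (median 0.561). ALDOC rose by a log2 fold change of 3.42 ± 0.502 (adjusted p = 0.00126). S100B, a calcium-binding protein of Schwann cells that fat cells also make, had 0.485 to 4.31 CPM against 0.0912 to 0.850, with a log2 fold change of 2.62 ± 0.455 (adjusted p = 0.00789). S100B was called with Y-linked expression added (0.0320) but not without CTR_18 (2.47 ± 0.520, adjusted p = 0.0906). The other 11 tested genes of nerve and Schwann cell were not called.

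The last 6 of the called genes are named here after their values were seen. LGALS12, a galectin of fat cell droplets, had 0.158 to 2.20 CPM against 0.0377 to 0.167 and a log2 fold change of 2.85 ± 0.434 (adjusted p = 0.00165). GYG2, the glycogenin of liver and fat, had a log2 fold change of 2.08 ± 0.426 (0.0476). PRKAR2B, the regulatory subunit through which cAMP acts in fat cells, had 1.63 ± 0.318 (0.0303). TF, the iron carrier transferrin, had 4.02 ± 0.825 (0.0476), and only 4 of 12 high-ADIPOQ animals exceeded every low one. TCF23, a helix-loop-helix factor, had 3.33 ± 0.553 (0.00497), and MAL2, a membrane traffic protein, 3.02 ± 0.553 (0.0156). LGALS12 and TCF23 were called with Y-linked expression added (0.00428 and 0.00287), while GYG2, PRKAR2B, TF and MAL2 were not. The log2 fold changes of these 4 were then 2.08, 1.78, 3.91 and 2.91 (adjusted p = 0.358, 0.126, 0.423 and 0.0997). Without CTR_18 LGALS12 alone of the 6 passed (0.00566). In the 24 fits that left out 1 animal each, GYG2 was called in 5, TF in 6 and PRKAR2B in 9. MAL2 was called in 23 of them, and LGALS12 and TCF23 in all 24. DESeq2 gave no p-value for TF.

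**Figure D3:**
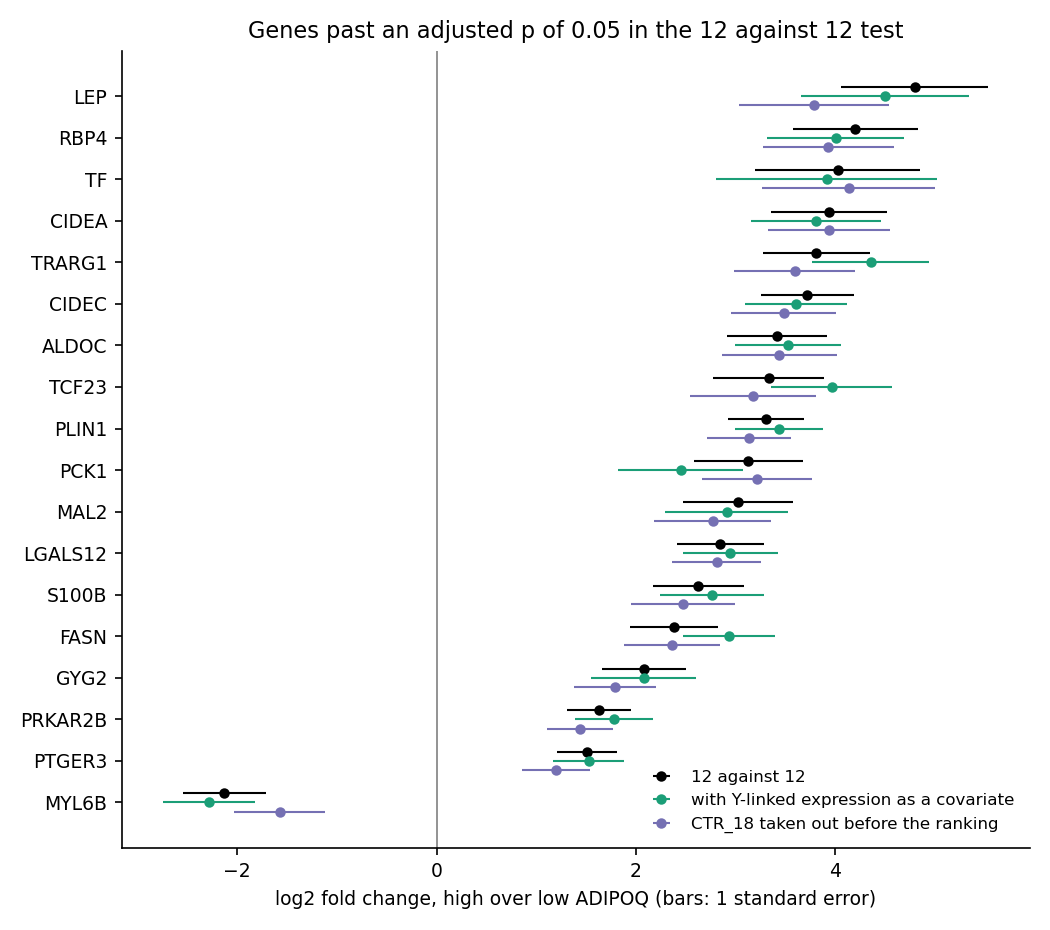
Log2 fold changes of the 18 called genes, high over low ADIPOQ, with bars of 1 standard error, in the comparison of 12 with 12 animals (black), with Y-linked expression as a covariate (green) and with CTR_18 taken out before the ranking (purple). All 18 keep their side of 0 in the 3 fits, while 11 are called in the second and 8 in the third.

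The single gene called lower was MYL6B (chr11:55714153-55719699), an alkali light chain of myosin found in slow and developing muscle. MYL6B had 11.7 to 126 CPM in the high-ADIPOQ animals (median 36.47) and 41.2 to 547 in the low ones (median 114). It fell by 2.13 on the log2 scale (SE 0.414, adjusted p = 0.0303), with 8 of 12 high-ADIPOQ animals below every low one. The call was kept in 12 of the 24 fits that left out 1 animal each, with an adjusted p up to 0.261 without CALRES_6, and was lost with Y-linked expression added (log2 fold change -2.28 ± 0.461, adjusted p = 0.0629) and without CTR_18 (-1.57 ± 0.454, 0.819). Of the 12 slow fibre genes tested 0 passed, 1 had a value above 0 (44.7% of all genes did) and their median was -0.67. Their summed level ran from 254 to 31071 CPM at the high end and from 3159 to 37286 at the low end, and its part in the MYL6B difference was not tested.

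The lists of other cells gave no call beside S100B. Of the 22 genes of fibro-adipogenic progenitors and fibroblasts, the cells from which muscle fat cells arise, 0 were called. Of these 22, 6 were above 0 (44.7% of all genes were), and their median was -0.47. Their defining gene PDGFRA had 20.9 to 83.1 CPM against 20.9 to 62.6 and a log2 fold change of -0.01 ± 0.227 (adjusted p = 0.995). The most negative value of that list, POSTN with -3.34 ± 1.01 (adjusted p = 0.707), rested on few animals. Its level was 329 CPM in CALRES_4 and 29.8 in CALRES_15, against a low-end median of 0.939 and a high-end median of 0.600, and COL3A1, a collagen of scar and matrix, was also highest in CALRES_4 and CALRES_15 (4827 and 1943 CPM, log2 fold change -2.12 ± 0.874, adjusted p = 0.742).

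Blood vessel, immune and tendon genes were likewise uncalled, in 0 of 14 endothelial, 0 of 12 pericyte and smooth muscle, 0 of 17 macrophage, 0 of 12 lymphocyte, 0 of 13 adipose inflammation and 0 of 8 tendon genes tested. The medians of these lists were 0.20, -0.00, -0.19, -0.47, 0.61 and -0.19. Of the 7 erythroid genes 0 were called, with a median of 1.76. The summed erythroid level was 1.62 to 72.9 CPM at the high end and 0.964 to 19.9 at the low end. It was highest in CTR_18, whose levels the TMM scale raised.

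The 9 tested Y-linked genes, which follow the uneven split described above, were all below 0 and uncalled, with a median of -1.95. Muscle's own programs were mostly below 0 and uncalled. Of 31 oxidative phosphorylation genes 2 were above 0 (median -0.54), of 20 fatty acid oxidation genes 0 (median -0.31), of 17 glycolysis and glycogen genes 3 (median -0.26) and of 13 fast fibre genes 5 (median -0.05), beside 44.7% of all genes. The 11 genes of satellite cells and regeneration had a median of -0.44, with 1 above 0. COX7A1, the heart and muscle form of a cytochrome c oxidase subunit, had 51.7 to 688 CPM at the high end (median 352) and 90.4 to 1657 at the low end (median 229), so that its median lay higher at the high end while the fitted log2 fold change was -1.18 ± 0.507 (adjusted p = 0.742). The median summed level was also higher at the high end for oxidative phosphorylation (5238 against 4654 CPM) and fast fibre genes (67968 against 65826). It was lower there for fatty acid oxidation (2153 against 2397), glycolysis and glycogen (32353 against 39692) and satellite cell genes (5964 against 7530). The lists as wholes were not tested.

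**Figure D4:**
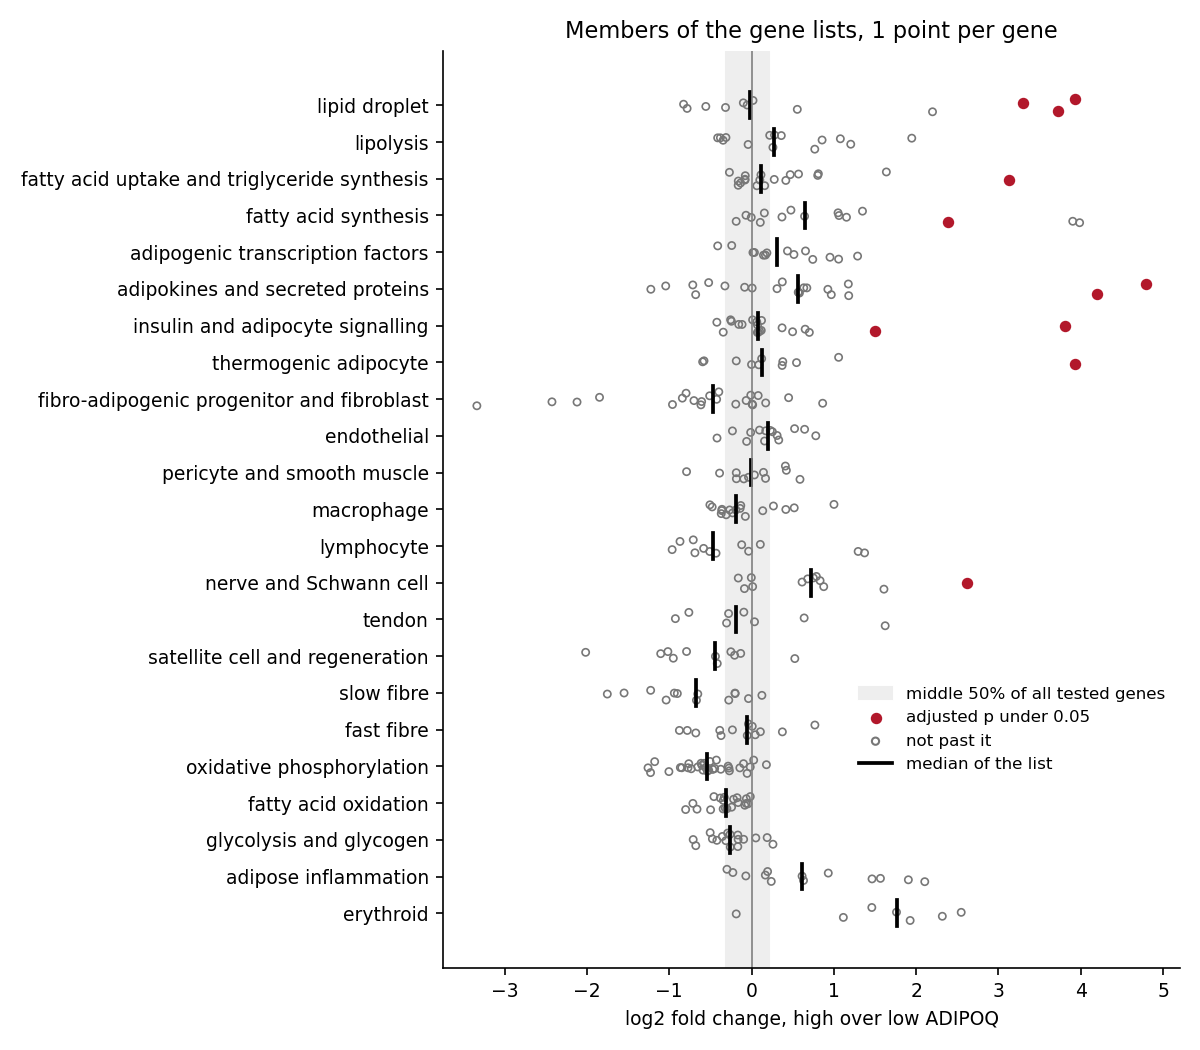
Log2 fold changes, high over low ADIPOQ, of the tested members of each list, 1 point per gene (CIDEA is on both the lipid droplet and the thermogenic list), with the list median as a black bar and the called genes in red. The grey band holds the middle 50% of all genes tested, and the red points lie in the fat cell lists except 1, S100B, among nerve and Schwann cell genes.

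The 12 animals in the middle of the ranking were in neither end. In each of the 17 genes called higher their median lay between those of the low and the high end. These genes were called for a difference between the ends and the ranking was the same, so this placing is only a description. Its share over all genes was not counted. Within these 12 animals the slope of the gene on log2 ADIPOQ was above 0 in 14 of 17 genes, against 45.3% of all genes, but 0 of the 17 had an unadjusted p under 0.05 (657 of 17881 genes did with a slope above 0, 3.67%) and 0 genes passed an adjusted p of 0.05. The slope of MYL6B, the gene called lower, was above 0 in these animals. The middle animals spanned 1.35 to 4.17 CPM of ADIPOQ, a narrow part of the whole range. With log2 ADIPOQ as a number over all 36 animals, ends included, 47 of 17174 genes rose with it (0.274%) and 2 fell (0.0116%), the 17 among the 47.

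Diet was asked about in 3 ways. ADIPOQ itself had a mean log2 CPM of 1.09 ± 2.37 in the CALRES animals and 0.989 ± 1.78 in the CTR animals (SD, n = 18 each), a difference of 0.0994 that was within the spread (permutation test, two-sided p = 0.889). In library set 1 the difference was -0.248 (8 and 8 animals, exact permutation test, p = 0.792) and in set 2 0.378 (10 and 10 animals, permutation test, p = 0.719). PLIN1 in place of ADIPOQ gave 0.176 (permutation test, p = 0.75), so fat cell message did not differ detectably by diet in these muscles.

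Genes were then tested for a high against low difference that differed by diet. With edgeR 0 of 16951 genes passed an adjusted p of 0.05, 1200 (7.08%) had an unadjusted p under 0.05, and DESeq2 called 11. Of the 124 fat cell list genes 6 (4.84%) had an unadjusted p under 0.05. The list members with the lowest p-values were SLC4A1, the anion exchanger of red cells (interaction -6.72 ± 1.81), CSPG4, a pericyte proteoglycan (1.99 ± 0.700), and PDE3B, which quenches cAMP in fat cells (2.41 ± 0.922), all with an adjusted p of 0.692. For LEP the high-ADIPOQ animals had 1.45 to 32.0 CPM in CTR (median 3.61) and 0.305 to 18.4 in CALRES (median 3.34), with an interaction of -1.85 ± 1.21 (adjusted p = 0.775). In the CTR animals alone LEP had a log2 fold change of 6.51 ± 0.731 and in the CALRES animals alone 3.61 ± 0.885. PLIN1 had nearly equal values, 3.20 ± 0.634 and 3.45 ± 0.469, with an interaction of 0.44 ± 0.713 (adjusted p = 0.923).

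Finally, diet was tested at a given ADIPOQ level over the 36 animals. With edgeR 0 of 17174 genes passed an adjusted p of 0.05, 1862 (10.8%) had an unadjusted p under 0.05, and DESeq2 called 11. Of the 128 fat cell list genes tested, 10 (7.81%) had an unadjusted p under 0.05. The 3 list members with the lowest p-values were PRX, a myelin protein (log2 CALRES over CTR of -1.02 ± 0.310), PTGER3 (0.81 ± 0.255) and VWF, the clotting factor of endothelium (-0.83 ± 0.262), all with an adjusted p of 0.380. LEP had 0.13 ± 0.482 (0.926), PLIN1 0.13 ± 0.227 (0.846) and FASN 0.00 ± 0.338 (0.999) in this test.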

How the data were processed

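Bulk RNA-seq of the vastus lateralis was deposited as 1 table of raw counts per Ensembl gene for each of 40 animals, with 35432 genes, of which 24186 have a symbol. The authors trimmed the reads with bbduk, aligned them to Mmul_10 with STAR and counted them with featureCounts before depositing these counts. The submitters' processing notes also name FastQC and RSEM, and strand and multi-mapping settings are not given in the sources used here. No library was a copy of another: 0 of 380 same-diet pairs held equal counts, and the closest pair had a chi-square of 319 for each degree of freedom. Each animal gave 1 library.

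Genes were filtered with filterByExpr (minimum count 10). Its groups were the ends wherever the ends were compared, and the diets in the fits with ADIPOQ as a number. The genes were then normalized by TMM and tested with edgeR 4.0.16 (quasi-likelihood) in R 4.3.3. Library set and diet were covariates, with Benjamini-Hochberg adjustment at 0.05. The study tested diet with DESeq2 and adjusted for sex and weight too, which the labels do not give. Library set was used in place of the study's batch term, but the labels do not call it a batch. The levels given as TMM-normalized CPM carry no prior count. Diet and age were compared by permutation (100000 resamples, or exact) in scipy 1.17.1. The scripts were tested on simulated data. Limma 3.58.1 (voom), DESeq2 1.42.0, RLE size factors, other filters, covariates, rankings and subsets, and each animal left out, were the alternatives. The animals and lists were chosen with earlier results of these data known. The genes named were PLIN1, the 3 members of each list with the lowest p, the 5 genes with the lowest p in each direction, and the 3 list members with the lowest p in each diet test. PLIN2, PLIN4, PLIN5, PNPLA2, SLC2A4, PDGFRA, UCP1, CFD, CEBPA and the remaining called genes were added after their values were seen. Single values of 2 genes that this rule names are not reported here.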

Additional observations from a re-analysis of the deposited data

How the results depend on the processing

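The 17 higher genes and the lower one kept their direction in each grouping of the animals wherever they were tested, except that 14 of the 18 did with ADIPOQ as a number over the middle 12, while the number called moved. These fits share animals with the comparison that gave the calls. DESeq2 called 44 higher and 3 lower, no filter on low counts 33 and 3, and at least 10 counts in every animal 5 higher. That last filter tested only 8 of the 18 called genes, of which 6 were called. No covariates and ranking by TMM-normalized ADIPOQ left 0 lower. With Y-linked expression added 11 and 0 were called, with 6 against 6 animals 3 and 0, with 18 against 18 2 lower, and with the 12 ends of all 40 animals 27 and 0. ADIPOQ as a number called 47 and 2 over 36 animals, 33 and 3 with Y-linked expression added, and 0 and 0 over the middle 12. Library set 1 gave 0 and 0, set 2 0 lower, CTR alone 2 and 0, and CALRES alone 3 and 0. Without CTR_18, chosen after seeing the data like the 36-animal fit with Y-linked expression, 8 and 0 were called. Leaving out 1 animal at a time gave 12 (without CALRES_19) to 21 (without CTR_9) higher and 0 to 1 lower. A replicate block on the title numbers called 0 and 0. Those numbers do not pair the animals: 8 were shared by a CTR and a CALRES animal, 4 of these across the ends, and the correlation of their deviations ran from -0.39 to 0.276 (median -0.13). DESeq2 called 11 genes for the interaction with diet and 11 for diet at a given ADIPOQ level. The ADIPOQ difference by diet was -0.14 over all 40 animals and -0.25 in library set 1.

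Over 70 named genes, 38 of 1453 values from the alternative fits changed sign, and the cause was not tested. In library set 1 these were EBF1 -0.80, TLE3 -0.42, CAVIN1 -0.16, EBF2 -1.20, PRDM16 -0.79, ERG -0.34, MYH11 -0.82, AIF1 -0.565, CD209 -0.65, PRX -0.19, MYL1 0.17, PGAM2 0.45, ECI1 0.23, HADH 0.16, PHKG1 0.44, SAA1 -0.84 and SAA2 -2.82. Under the replicate block they were AIF1 -0.41, JCHAIN -0.43, PRX -0.48, ECI1 0.046, PHKG1 0.61, SAA1 -0.20 and SAA2 -2.18. In CTR alone they were LOX 0.36, JCHAIN -0.027, PRX -0.17 and THBS4 0.017. LPL was -0.094 with no covariates, -0.076 with Y-linked expression added, -0.084 with 18 against 18 and -0.017 with ADIPOQ as a number and Y-linked expression. PRDM16 was -0.017 without CTR_18, CD209 -0.045 over all 40, THBS4 0.21 in set 2, PGAM2 0.016 with 6 against 6, PHKG1 0.039 with 18 against 18 and SAA2 -0.53 with limma-voom.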

Other observations

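The 4 animals left out of the ranking had fat cell message at levels inside the range of the ranked animals. CTR_2 had 8.55 CPM of ADIPOQ and 11.3 of PLIN1, CTR_8 8.20 and 10.5, CALRES_2 4.09 and 5.81, and CALRES_3 0.690 and 0.869. They are not replicates of either end.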
